A study of Mus musculus with 35 samples.

Results

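Zinc handling in the hypothalamus was followed through the RNA of 8 genes. The first were the metallothioneins Mt1, Mt2 and Mt3 and the metal-sensing transcription factor Mtf1. The others were the SLC30 exporters Slc30a1, Slc30a3 and Slc30a10, the last known for manganese, and the SLC39 importer Slc39a14. The genes were taken by name from the count tables, and all 8 were found among 49568 genes. All 8 also passed the low-count filter. In short, Mt1 and Mt2 rose with fasting in control and in PER2-S662D mice. Mt3, Mtf1, Slc30a1, Slc30a3 and Slc39a14 did not pass the test in either genotype. Slc30a10 fell with fasting and passed in PER2-S662D mice, a call that several alternatives lose. In controls its change was also downward but did not pass, and the difference between the genotypes did not pass either.

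Metallothioneins are small proteins that bind zinc and copper through clusters of cysteine residues. Mt1 and Mt2 are present in most tissues, in the brain mainly in astrocytes, and are induced by zinc through Mtf1, which binds metal response elements, and also by glucocorticoids and oxidative stress, whereas Mt3 is a form found chiefly in the nervous system. Exporters of the SLC30 family move zinc out of the cytosol, into vesicles or out of the cell, and importers of the SLC39 family move it in.

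The study measured polyA RNA in the hypothalamus of male B6/J mice at Zeitgeber time 16 (hours after lights-on). Control mice were fed without limit (10 libraries) or fasted for 16 h (10 libraries). The genotype PER2-S662D carries a changed version of PER2, a repressor in the circadian clock, with 5 fed and 5 fasted libraries. The remaining 5 libraries, labelled Per2 ko, were all from fasted mice. The labels give each genotype by name alone, with no promoter, line or age.

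The 35 libraries held 17959586 to 37027342 assigned counts. Per2 itself was not lower in the libraries labelled Per2 ko, at 30.2 ± 1.99 CPM (counts per 1000000 after scaling; SD, n = 5) against 29.0 ± 2.44 in fasted controls (n = 10), so these libraries are named by their label throughout. In PER2-S662D libraries Per2 was lower, at 18.7 ± 1.98 CPM fed and 19.9 ± 2.38 CPM fasted (n = 5 each), below every control library, with log2 differences from control of −0.59 (SE 0.07, adjusted p = 1.17e-07, edgeR) and −0.55 (SE 0.07, adjusted p = 6.75e-07). Library numbers in the file headers place the controls in 2 sets, replicates 1 to 5 and 6 to 10, with the labelled Per2 ko libraries numbered between them and the PER2-S662D libraries after both. Genotype and library range therefore cannot be told apart. In PER2-S662D mice the fed libraries are numbered 171 to 175 and the fasted ones 176 to 180. Feeding state and library number cannot be told apart there either. Control numbers run from 121 to 145 fed and from 126 to 150 fasted, both ends being lower in the fed libraries. Feeding state may thus follow library number within the control sets as well, which was not tested. In addition, 6 PER2-S662D libraries (replicates 2, 3 and 4, fed and fasted) carry an additional digit in the library number, whose meaning is not stated. All 8 markers of hypothalamic neurons had a mean of at least 1 CPM, while 5 of 6 pituitary markers lay below it. Summed choroid plexus markers ran from 18.5 to 1543 CPM over the libraries, and all 5 groups overlapped.

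The coding sequences show what makes the metallothioneins a family, and how far counts can be kept apart. They are printed 5′ to 3′ from the first annotated transcript of each gene (GENCODE M21, GRCm38), with the cysteine codons in capitals.
Mt1: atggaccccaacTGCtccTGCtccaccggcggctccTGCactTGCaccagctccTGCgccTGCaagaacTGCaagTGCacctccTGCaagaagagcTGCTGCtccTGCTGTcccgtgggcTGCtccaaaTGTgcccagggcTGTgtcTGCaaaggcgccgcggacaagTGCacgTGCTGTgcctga
Mt2: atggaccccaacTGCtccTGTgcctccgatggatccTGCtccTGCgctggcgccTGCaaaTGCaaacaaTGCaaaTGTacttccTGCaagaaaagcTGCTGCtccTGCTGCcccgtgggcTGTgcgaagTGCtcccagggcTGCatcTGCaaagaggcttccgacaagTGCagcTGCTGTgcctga
Mt3: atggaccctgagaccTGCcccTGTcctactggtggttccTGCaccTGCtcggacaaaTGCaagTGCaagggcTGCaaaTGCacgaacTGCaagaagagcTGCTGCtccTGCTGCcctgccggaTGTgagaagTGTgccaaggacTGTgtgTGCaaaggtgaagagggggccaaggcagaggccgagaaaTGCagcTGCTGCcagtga
Mt1 and Mt2 each held 61 codons before the stop, of which 20 code for cysteine (32.8%). Mt3 held 68 codons, again with 20 for cysteine (29.4%). Mt1 and Mt2 were identical at 148 of 186 bases (79.6%), Mt1 and Mt3 at 66.2% and Mt2 and Mt3 at 67.6% of 207 aligned positions. No 50-base word of an Mt1 or Mt3 transcript occurred in a transcript of another gene, so reads of that length separate the family members.

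The 3 genes lie next to each other on the plus strand of chromosome 8 (mm10): Mt3 at 94152607 to 94154146, Mt2 at 94172664 to 94173568 and Mt1 at 94179082 to 94180327. Mt4, the remaining metallothionein of the cluster, is known from stratified epithelium and received 6 counts in all 35 libraries together. Mt2 shares 432 of its 588 exon bases (73.5%) with RP23-98C9.5, a gene of 1 exon on the minus strand (94170748 to 94173412). Fragments that overlap 2 genes are not assigned under the counting options in the file headers, and strand was not used. What remains for Mt2 is a run of 156 bases, 94173413 to 94173568, of which 12 are coding and the others lie past the coding part. This left Mt2 with 8 to 97 counts per library, where Mt1 had 2567 to 10562. The Mt2 values are therefore counts of the last stretch of the gene, not a level beside Mt1. By the labels the reads were 150 bases long, close to the length of that run. Whether fragments were assigned to it alike in all groups was not tested. RP23-98C9.5 had 0 to 24 counts per library and did not pass the test with fasting (log2 fold change 0.87, SE 0.33, adjusted p = 0.170, edgeR).

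**Figure D1:**
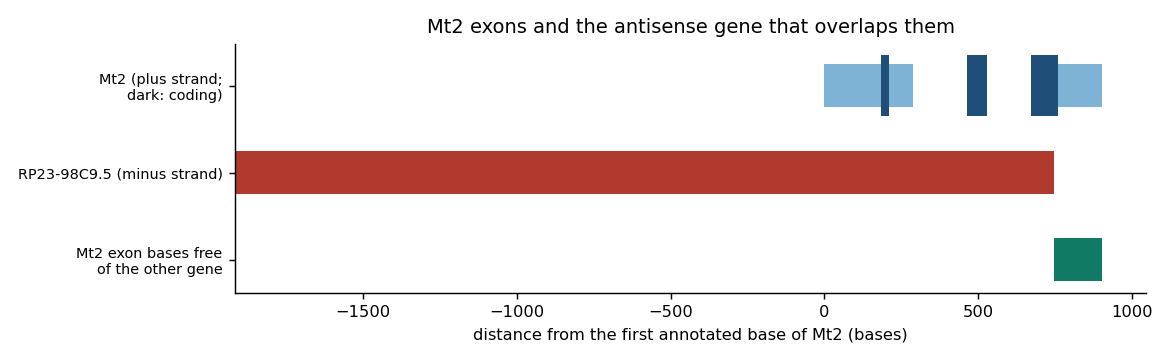
Map of Mt2 and RP23-98C9.5, with the distance from the first annotated base of Mt2 (bases) on the x axis. Bars are exons, dark blue is coding sequence, and the lowest bar is the run of 156 Mt2 bases outside the antisense gene, from which the 8 to 97 counts per library came.

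The sequence before the start sites was examined for metal response elements because Mt1 and Mt2 both rose with fasting. The windows below are the 250 bases before the RefSeq start (GRCm38.p6, plus strand): Mt1 at chr8:94178839-94179088, Mt2 at chr8:94172368-94172617 and Mt3 at chr8:94152357-94152606. Capitals mark the core of the element, TGCACNC or TGCGCNC, on either strand.
Mt1: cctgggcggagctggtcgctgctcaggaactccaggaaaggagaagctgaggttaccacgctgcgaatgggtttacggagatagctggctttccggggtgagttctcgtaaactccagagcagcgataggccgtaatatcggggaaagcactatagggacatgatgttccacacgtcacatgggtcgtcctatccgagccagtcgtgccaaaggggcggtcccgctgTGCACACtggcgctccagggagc
Mt2: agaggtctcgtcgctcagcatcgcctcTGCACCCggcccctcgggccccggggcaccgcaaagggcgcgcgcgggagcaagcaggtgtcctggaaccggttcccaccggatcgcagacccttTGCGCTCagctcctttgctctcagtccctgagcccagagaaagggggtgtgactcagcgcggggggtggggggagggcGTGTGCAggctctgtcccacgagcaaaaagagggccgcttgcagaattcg
Mt3: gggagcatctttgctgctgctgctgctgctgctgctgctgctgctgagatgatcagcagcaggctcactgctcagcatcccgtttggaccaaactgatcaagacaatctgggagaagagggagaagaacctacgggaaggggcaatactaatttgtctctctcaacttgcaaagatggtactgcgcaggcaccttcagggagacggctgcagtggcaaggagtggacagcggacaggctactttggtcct
The Mt1 window held 1 core, the Mt2 window 3 and the Mt3 window 0. At least 1 core stood in 21.4% and at least 2 in 5.17% of 32851 windows of the same length. Slc30a1 held 1 core, the first of 2 listed Slc30a3 windows held 1 and the other 0, Slc30a10 held 3 (of which 2 overlap on opposite strands), and Mtf1 held 0. The RefSeq starts lie upstream of the coding part by a long leader. The first 150 bases of the transcripts, all before the start codon, were therefore searched too. For Mt2, the bases between the window end (94172617) and its first annotated base (94172664) were in neither search. Mt1 held 4 cores there, beginning at bases 10, 28, 92 and 106 of the transcript. Mt2 held 3, at bases 13, 32 and 66, and Mt3 also held 3, at bases 28, 55 and 87. At least 3 cores stood in 0.265% of 49411 first transcripts. Of other elements, TGTTCT, an arm of the glucocorticoid response element, stood in the windows of Mtf1 and Slc30a3 and in 16.1% of all windows. The antioxidant element TGACNNNGC stood in those of Mt2 and Slc30a1 and in 10.2% of all windows. These matches describe letters in a window, and show neither binding nor its absence.

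Fasting in control mice was the comparison with the most libraries. Mt1 and Mt2 rose, 2 of the 8 genes, where 3.88% of 18063 genes tested passed in either direction, 2.20% rising and 1.68% falling. A gene is said to pass when its adjusted p from edgeR's quasi-likelihood test (Benjamini-Hochberg over all genes tested) lay below 0.05.

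Mt1 in fed controls had a lowest value of 138.0, a median of 191 and a highest of 219 CPM. In fasted controls these were 238, 305 and 374 CPM. Every fasted library therefore lay above every fed one. The means were 188 ± 24.5 CPM fed and 306 ± 39.6 CPM fasted (SD, n = 10 each), 1.63 times as high after the fast, or a log2 change of 0.70 (SE 0.08, adjusted p = 1.94e-07). Within control replicates 1 to 5 the change was 0.64, and within replicates 6 to 10 it was 0.78.

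Mt2 in fed controls had a lowest value of 0.427, a median of 0.764 and a highest of 1.03 CPM, from 8 to 23 counts. In fasted controls these were 0.952, 2.02 and 2.71 CPM, from 18 to 52 counts. All but 1 of the fasted libraries (replicate 6) lay above every fed one. The means were 0.725 ± 0.192 and 1.92 ± 0.627 CPM, 2.65 times as high after the fast, or a log2 change of 1.39 (SE 0.19, adjusted p = 1.48e-06).

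**Figure D2:**
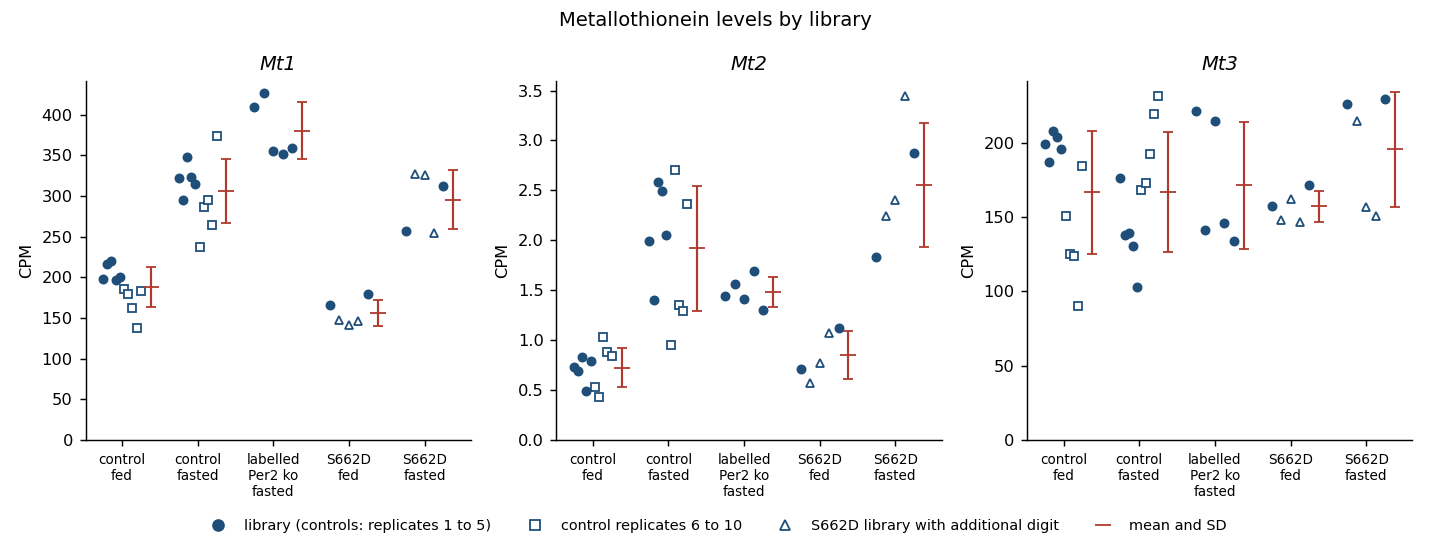
CPM of Mt1, Mt2 and Mt3 (y axes) in each library by group (x axis); bars give the mean and SD, squares are control replicates 6 to 10 and triangles PER2-S662D libraries with the additional digit. Mt1 in fasted controls (238 to 374 CPM) lies above all fed controls (138.0 to 219), while the control sets of Mt3 cross between the feeding states.

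Mt3, the neural form, had nearly the same mean in both feeding states, at 167 ± 41.4 CPM fed and 167 ± 40.5 CPM fasted, and a log2 change of 0.00 between them (SE 0.15, adjusted p = 0.996). That average covers opposite changes in the control sets. In replicates 1 to 5, fed libraries held 200, 187, 208, 204 and 196 CPM, and fasted ones 176, 138, 139, 130.4 and 103 CPM. In replicates 6 to 10, fed libraries held 151, 125, 124.0, 90.1 and 185 CPM, and fasted ones 168, 173, 193, 219 and 231 CPM. Fed and fasted did not overlap in the first set, with the fed libraries higher, and overlapped through 1 fed library in the second, with the fasted ones higher. The change was −0.53 (SE 0.17, adjusted p = 0.0442) in the first set, where 8.28% of all genes passed, and 0.55 (SE 0.17, adjusted p = 0.0691) in the second, where 3.04% did. The difference of the changes was 1.08 (SE 0.24, adjusted p = 0.00653, edgeR), and 10.6% of all genes passed that test. Mt1 and Mt2 did not pass it (0.15, SE 0.14, adjusted p = 0.552, and −0.37, SE 0.38, adjusted p = 0.593), nor did the other 5 genes.

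The genes most like Mt3 over the 35 libraries, once the mean of each group was removed, were Cox5b (Pearson r = 0.978), Uqcr11 (0.973), Rpl36 (0.964), Rpl37 (0.962) and Fau (0.961), out of 15478 genes ranked. Cox5b and Uqcr11 encode subunits of the respiratory chain, and the others ribosomal proteins. They were named after their values were seen. The libraries share preparation and depth, so these r values are descriptions. For Mt1 the 5 most alike were Prodh (0.824), Plin4 (0.801), Pcolce2 (0.782), Sdc4 (0.768) and Ankrd13a (0.757), all 5 of which rose with fasting in controls, by 0.40, 1.85, 0.45, 0.35 and 0.29 on the log2 scale. For Mt2 they were Bub3 (0.719), Tas1r1 (0.638), Hrasls (0.635), Tspyl4 (0.620) and Ncald (0.611), none of which passed in that comparison. Mt1 with Mt2 gave 0.266, and Mt1 with Mt3 0.378. The low counts of Mt2 add counting noise to its values, which limits every r with Mt2 given here.

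Mtf1, which senses zinc and drives Mt1 and Mt2, was at 28.1 ± 1.71 CPM in fed and 26.9 ± 1.69 in fasted controls (log2 fold change −0.06, SE 0.05, adjusted p = 0.671). Slc30a1, the exporter of the plasma membrane, was at 29.0 ± 2.11 and 31.0 ± 2.05 CPM (0.10, SE 0.05, adjusted p = 0.355). Slc30a3, which loads zinc into synaptic vesicles, was at 10.3 ± 1.25 and 10.9 ± 1.86 CPM (0.08, SE 0.08, adjusted p = 0.776). None of these passed, and fed and fasted libraries overlapped for each. Slc39a14, an importer of zinc, iron and manganese, was at 30.8 ± 2.08 and 32.0 ± 1.81 CPM (0.06, SE 0.05, adjusted p = 0.676). Slc30a10, known as a manganese exporter, had lowest, median and highest values of 17.4, 21.8 and 24.9 CPM fed and 16.8, 19.0 and 22.2 CPM fasted (−0.16, SE 0.06, adjusted p = 0.157). It too did not pass, and its groups overlapped. At an unadjusted p below 0.05 (edgeR) there were 4 of the 8 genes, Mt1, Mt2, Slc30a1 and Slc30a10, against 2402 of all genes.

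**Figure D3:**
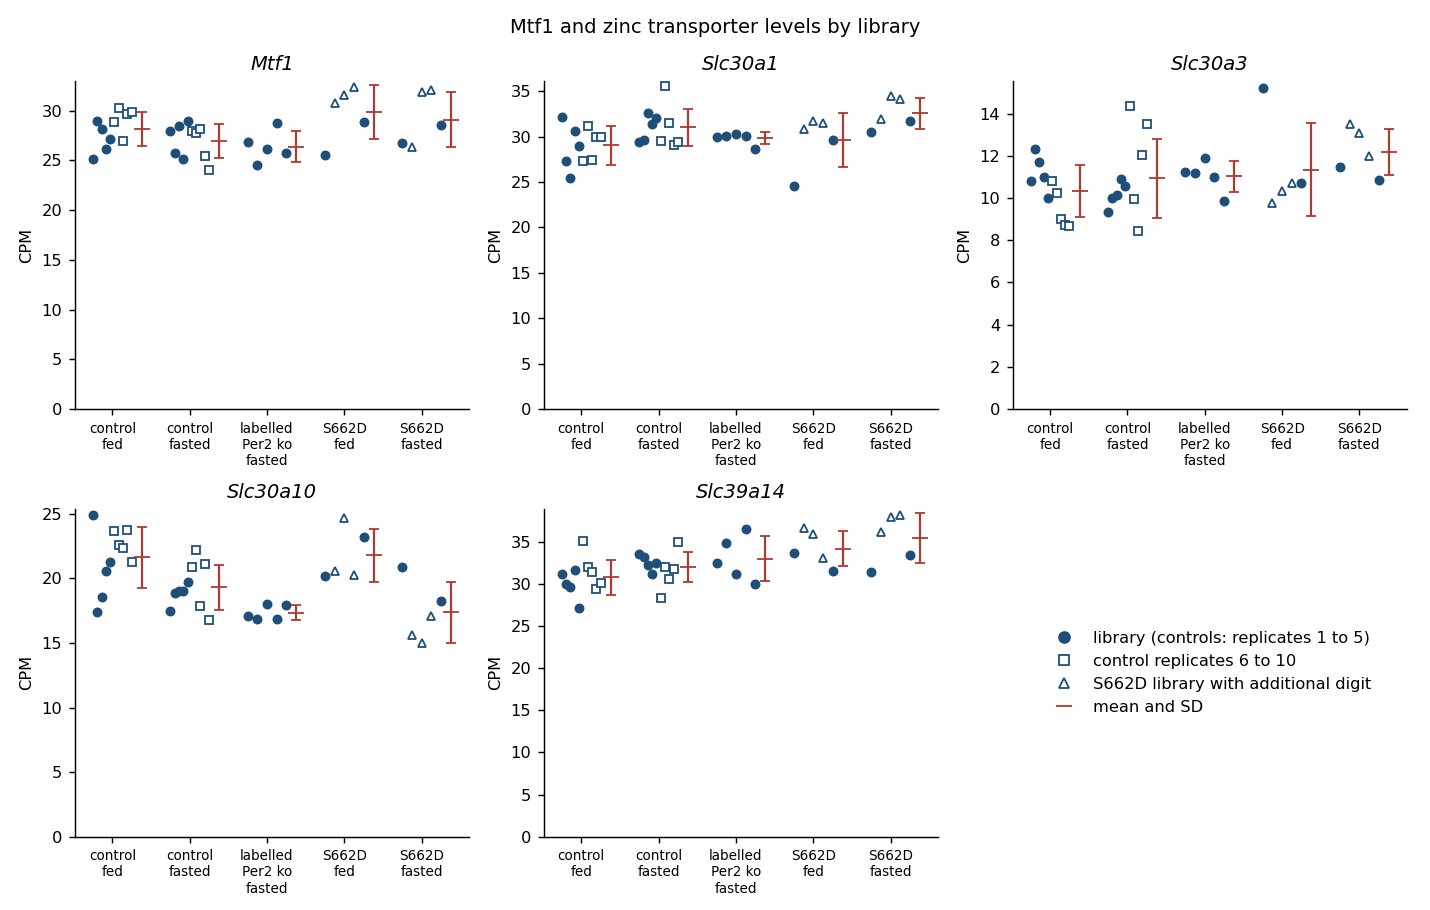
CPM of Mtf1, Slc30a1, Slc30a3, Slc30a10 and Slc39a14 (y axes) in each library by group (x axis), with the same symbols as for the metallothioneins and bars for mean and SD. Fed and fasted libraries overlap in every panel, the widest separation being that of Slc30a10 in PER2-S662D mice.

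In PER2-S662D mice, Mt1 and Mt2 rose with fasting and Slc30a10 fell, 3 of the 8 genes. Of all genes tested, 2.64% passed there, 1.80% rising and 0.830% falling. Mt1 was at 166, 147, 142, 146 and 179 CPM in the fed and at 257, 327, 326, 254 and 313 CPM in the fasted libraries. The groups did not overlap, and the means were 156 ± 15.9 and 295 ± 36.5 CPM (n = 5 each), which on the log2 scale is a rise of 0.92 (SE 0.11, adjusted p = 1.23e-06). Mt2 was at 0.708, 0.566, 0.772, 1.07 and 1.12 CPM fed and at 1.83, 2.24, 2.41, 3.44 and 2.87 CPM fasted. These did not overlap either, and Mt2 rose by 1.60 on that scale (SE 0.24, adjusted p = 2.04e-05). Neither call held in the 4 libraries without the additional digit (2 fed, 2 fasted), where the changes were 0.72 (adjusted p = 0.223) and 1.36 (adjusted p = 0.315).

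Slc30a10 was at 20.2, 20.6, 24.7, 20.3 and 23.2 CPM in fed and at 20.9, 15.6, 15.0, 17.1 and 18.3 CPM in fasted PER2-S662D mice. The fasted replicate 1 alone reached into the fed range, and the change was −0.32 (SE 0.09, adjusted p = 0.0281). The call was lost under 8 of 22 alternatives, among them each of 5 single libraries left out (fed replicates 3 and 5, fasted replicates 2, 3 and 4), where the change lay between −0.31 and −0.27. Mt3 was at 157 ± 10.4 CPM fed and 196 ± 38.7 CPM fasted (0.32, SE 0.21, adjusted p = 0.532). Mtf1 (−0.04), Slc30a1 (0.13), Slc30a3 (0.11) and Slc39a14 (0.05) did not pass either, with adjusted p between 0.328 and 0.840. Here too Mt1, Mt2, Slc30a1 and Slc30a10 had an unadjusted p below 0.05 (edgeR), against 2587 of all genes.

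The fasting responses of the genotypes were compared by an interaction term, for which edgeR called 0 of the 8 genes and 0% of all genes. None of the 8 had an unadjusted p below 0.05, against 1150 of all genes, and DESeq2 and limma-voom called 0 of all genes as well. The response was larger in PER2-S662D mice by 0.22 for Mt1 (SE 0.13, adjusted p = 0.808), by 0.21 for Mt2 (SE 0.31, adjusted p = 0.920) and by 0.31 for Mt3 (SE 0.26, adjusted p = 0.838). For Slc30a10, which fell in both genotypes, the term was −0.15 (SE 0.11, adjusted p = 0.823). These errors leave room for a difference in either direction. With control replicates 1 to 5 alone, Mt3 was the 1 member that passed (0.85, adjusted p = 0.0427), among 482 of all genes. With control replicates 6 to 10 it gave −0.23 (adjusted p = 0.989), and 0 of all genes passed.

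**Figure D4:**
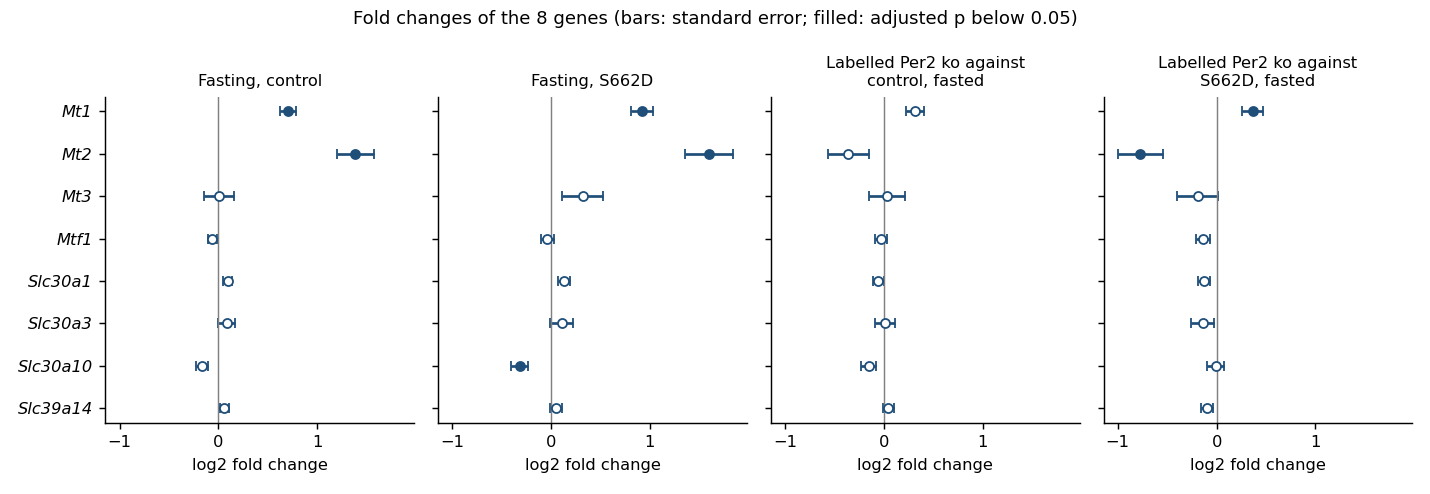
Log2 fold changes (x axis) of the 8 genes in 4 comparisons, with bars for the standard error and filled points for an adjusted p below 0.05. Mt1 and Mt2 are filled on the right side in both fasting panels and on opposite sides where the labelled Per2 ko is compared with PER2-S662D.

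Between PER2-S662D and control mice, 0 of the 8 genes passed in the fed state, where 4.68% of all genes did, and 0 in the fasted state, where 5.57% did. At an unadjusted p below 0.05 there were 2 in each state, Mt1 and Slc39a14 fed and Mt2 and Slc39a14 fasted. DESeq2 called 1 fed (Mt1) and 0 fasted, and limma-voom called 0 in both. These shares of all genes move with the libraries used: 846 genes passed fed and 1007 fasted, but 1711 and 1679 against control replicates 1 to 5 and 33 and 43 against replicates 6 to 10. Leaving out 1 library gave 66 (without PER2-S662D replicate 4) to 1671 (without replicate 1) fed and 156 to 1799 (the same numbers) fasted. Fed, Mt1 differed by −0.27 (SE 0.10, adjusted p = 0.0956), and by −0.40 (adjusted p = 0.00227) against control replicates 1 to 5 alone but −0.12 (adjusted p = 0.708) against replicates 6 to 10. Slc39a14 differed by 0.15 in the fed state (SE 0.05, adjusted p = 0.0915; 0.20, adjusted p = 0.0445, against replicates 1 to 5 and 0.11, adjusted p = 0.523, against 6 to 10) and by 0.14 in the fasted state (SE 0.05, adjusted p = 0.114). Fasted, Mt1 differed by −0.05 (SE 0.09, adjusted p = 0.817) and Mt2 by 0.41 (SE 0.19, adjusted p = 0.199).

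Mt1 was highest in the libraries labelled Per2 ko, at 409, 427, 356, 351 and 359 CPM. Of these, 2 lay above all fasted controls (highest 374 CPM). Mt2 in the same libraries was at 1.45, 1.56, 1.41, 1.69 and 1.30 CPM, all within the range of the fasted controls. Against fasted controls, Mt1 differed by 0.31 (SE 0.09, adjusted p = 0.557) and Mt2 by −0.36 (SE 0.21, adjusted p = 0.852). Thus 0 of the 8 genes passed in edgeR, 1 (Mt1) at an unadjusted p below 0.05 and 0 in DESeq2 or limma-voom, and 0.0277% of all genes passed.

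Against fasted PER2-S662D mice, the labelled Per2 ko libraries had higher Mt1 (0.36, SE 0.11, adjusted p = 0.0367) and lower Mt2 (−0.77, SE 0.23, adjusted p = 0.0310), 2 of the 8 genes where 7.32% of all genes passed, 2.60% higher and 4.72% lower. The groups overlapped for neither. Slc30a1 did not overlap either, at 29.8 ± 0.658 against 32.6 ± 1.70 CPM, but did not pass (−0.13, SE 0.06, adjusted p = 0.232). The share of all genes without overlap was counted in no comparison, so lack of overlap here only describes these genes. Neither call was kept with the additional digit as a term, where Mt1 gave 0.31 (adjusted p = 0.339) and Mt2 −0.75 (adjusted p = 0.258). Mt1 was lost without labelled Per2 ko replicate 1 or 2 or without PER2-S662D fasted replicate 1 or 4, with changes of 0.32 to 0.34. Mt2 was lost without labelled Per2 ko replicate 1, 2, 3 or 5 or PER2-S662D fasted replicate 4 or 5, with changes of −0.79 to −0.65. Markers of other cells differed in the same comparison. Of 7 endothelial markers 3 were lower, led by Cldn5 (−0.53) and Flt1 (−0.44), and their summed level was 228 to 260 CPM in the labelled Per2 ko and 242 to 307 CPM in fasted PER2-S662D libraries. Of 5 thalamic markers 2 were lower, Lef1 (−0.40) and Tcf7l2 (−0.34), with sums of 659 to 838 and 808 to 963 CPM. Of 8 hypothalamic neuron markers 2 were higher, Pmch (0.46) and Hcrt (0.45), 1 of 6 pericyte and fibroblast markers was lower, Pdgfrb (−0.44), and 0 of 9 astrocyte markers passed. Their part in the Mt1 and Mt2 differences was not tested.

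The levels of different genes were compared per kilobase of exon. Fed controls held Mt3 at 157 ± 38.9 and Mt1 at 151 ± 19.7 CPM per kilobase, which overlapped, and both lay above all other members. The annotated exon bases of Mt1 (1246) fill its span without a gap, whereas those of Mt3 (1066) leave gaps. The order of Mt1 and Mt3 therefore depends on the annotated lengths. Slc30a1 followed at 5.53 ± 0.403, with no overlap with the next gene. Slc30a10 (3.71 ± 0.403), Slc30a3 (3.65 ± 0.441), Mtf1 (3.16 ± 0.192) and Slc39a14 (2.92 ± 0.197) each overlapped with their neighbour in that order. After fasting, Mt1 stood first in all groups: 246 ± 31.8 in controls, 237 ± 29.3 in PER2-S662D mice and 305 ± 28.1 in the labelled Per2 ko. Its range was clear of that of Mt3 in the labelled Per2 ko alone. Slc30a1 came next after the metallothioneins in all 5 groups, and its range met that of the following gene in fed PER2-S662D mice alone. Mt2 is left out of this order, since most of its exon bases could not be counted.

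Mt1 was also set beside Fkbp5, a gene induced by glucocorticoids. The libraries share preparation and depth, so the relations below are descriptions, whatever their p. The pooled permutations also shuffle libraries between the control sets. How many of all genes correlate as strongly with Mt1 within these groups was not counted. Across the 10 fasted controls their log2 CPM values correlated, with Pearson r = 0.912 (permutation p = 3e-05, adjusted 0.00018 over 6 relations) and Spearman rho = 0.867 (p = 0.00236, adjusted 0.00708). Leaving out the 2 libraries farthest from the median Mt1 gave r = 0.904. With the mean of each control set removed, r was 0.965 (exact permutation within sets, p = 0.00118, adjusted 0.00708), while each set alone, with 5 libraries, is too small for a value of its own. Mt1 with Mt2 gave r = 0.776 in the same libraries (permutation p = 0.00721, adjusted 0.0144), and 0.626 without the 2 farthest, with rho = 0.600 (p = 0.0739, adjusted 0.148) and r = 0.737 with set means removed (p = 0.0360, adjusted 0.0903, exact permutation within sets). Mt1 with Mt3 gave r = −0.09 (permutation p = 0.80, adjusted 0.80), −0.61 without the 2 farthest, rho = −0.03 (p = 0.946, adjusted 0.946), and r = 0.410 with set means removed (p = 0.204, adjusted 0.245, exact permutation within sets). In fed controls, Mt1 separated the sets, at 197 to 219 CPM in replicates 1 to 5 and 138.0 to 186 CPM in replicates 6 to 10. Across these 10 fed libraries Mt1 with Fkbp5 gave r = −0.12 (permutation p = 0.740, adjusted 0.80), rho = −0.26 (p = 0.471, adjusted 0.565) and −0.06 without the 2 farthest, and 0.386 with set means removed (p = 0.0994, adjusted 0.149, exact permutation within sets). The relation that passed in fasted controls did not pass in fed ones, and the difference of the correlations was not tested. Mt1 with Mt2 gave r = −0.26 (permutation p = 0.480, adjusted 0.720), rho = −0.27 (p = 0.447, adjusted 0.565), 0.505 without the 2 farthest and −0.36 with set means removed (p = 0.475, adjusted 0.475, exact permutation within sets). Mt2 had so few counts in the fed libraries that counting noise could hide a relation, so these values do not show that the genes vary apart. Mt1 with Mt3 gave r = 0.919 (permutation p = 0.00038, adjusted 0.00114), rho = 0.867 (p = 0.00195, adjusted 0.00708), 0.706 without the 2 farthest and 0.801 with set means removed (p = 0.0451, adjusted 0.0903, exact permutation within sets). The pooled relation of Mt1 with Mt3 passed, and with set means removed it did not after adjustment.

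**Figure D5:**
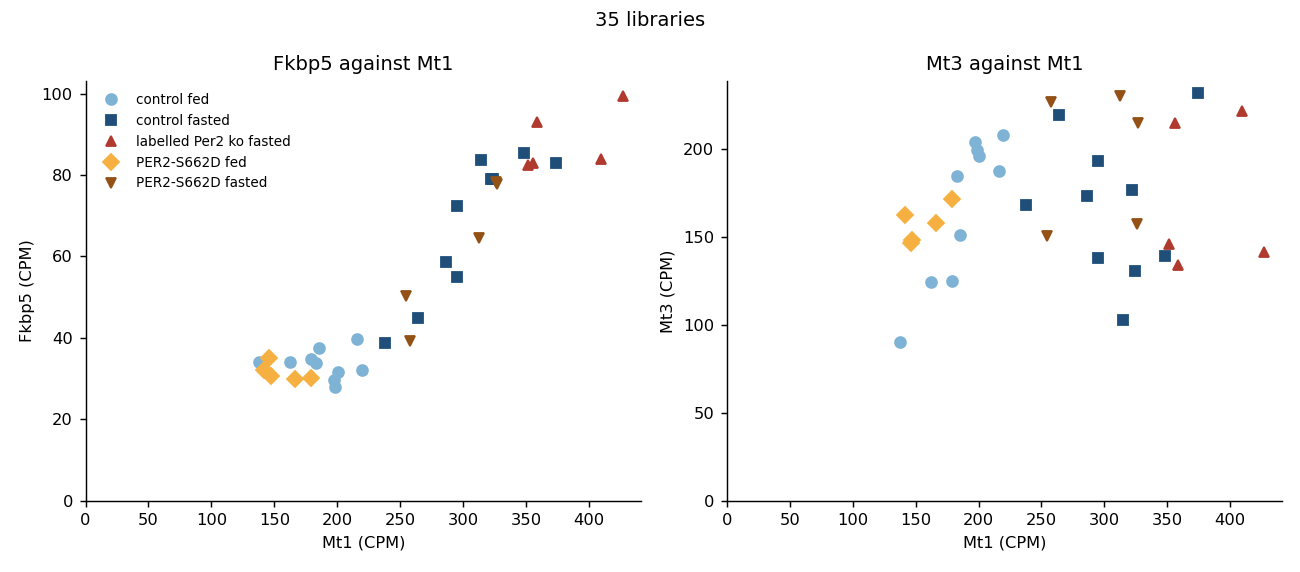
Fkbp5 (left) and Mt3 (right) in CPM against Mt1 in CPM, 1 point per library, by group. Fasted libraries with low Mt1, 238 to 264 CPM, also have the lowest Fkbp5 of the fasted groups, and no such order is seen for Mt3.

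Among genes around the members, all 9 glucocorticoid-induced genes listed rose with fasting in controls and in PER2-S662D mice, with median log2 fold changes of 0.93 and 1.06 against 0.00 over all genes. Fkbp5 rose by 1.02 (SE 0.13, adjusted p = 3.01e-06) in controls, Tsc22d3, a leucine zipper protein, by 0.76 (SE 0.08, adjusted p = 3.65e-08) and the kinase Sgk1 by 1.87 (SE 0.15, adjusted p = 1.90e-09). In PER2-S662D mice the same 3 rose by 0.97, 1.06 and 2.53. The list was drawn up with earlier results of these data known, and its direction is no independent support.

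Of the other zinc exporters, 6 of 7 were tested, and in either genotype 0 passed with fasting in edgeR, DESeq2 or limma-voom, with 0 at an unadjusted p below 0.05. Of 13 other zinc importers, 1 fell in both, Slc39a10, a plasma membrane importer reported as a target that Mtf1 represses. It went from 108 ± 7.16 to 97.7 ± 7.73 CPM in controls (−0.15, SE 0.04, adjusted p = 0.0392) and from 114 ± 7.47 to 98.5 ± 6.51 CPM in PER2-S662D mice (−0.21, SE 0.06, adjusted p = 0.0499). The fall in controls was that of replicates 6 to 10 (114 ± 4.87 to 92.1 ± 4.78 CPM, −0.30, adjusted p = 0.000483). In replicates 1 to 5 the values were 103 ± 4.51 and 103 ± 5.78 CPM (0.00, adjusted p = 0.981), and the responses differed by −0.31 (SE 0.07, adjusted p = 0.00884). The call was lost in 14 of 31 alternatives in controls and in 11 of 22 in PER2-S662D mice, most of them with 1 library left out. The other 4 of 5 reported Mtf1 targets (Selenow, Ndrg1, Csrp1 and Gclc) did not pass in either. Slc39a6 was higher in fed PER2-S662D than in fed control mice (0.18, adjusted p = 0.0160), and Slc39a3 in the fasted state (0.19, adjusted p = 0.0173). Slc39a3 was lower (−0.20, adjusted p = 0.0302) and Slc39a12 higher (0.17, adjusted p = 0.0449) in the labelled Per2 ko than in fasted PER2-S662D mice. Of all genes, 4.68%, 5.57% and 7.32% passed in these comparisons, in the order given. Apart from counts over the list in DESeq2 and limma-voom, the calls of Slc39a6, Slc39a3 and Slc39a12 were not examined under the alternatives. The number of all genes called in these comparisons moved widely there.

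Of 10 copper genes, 0 passed with fasting in either genotype in edgeR, DESeq2 or limma-voom, with 0 at an unadjusted p below 0.05. Of 10 iron genes, Steap3, a metalloreductase, fell in controls (−0.50, adjusted p = 0.000271) and Fth1, the ferritin heavy chain, rose in PER2-S662D mice (0.32, adjusted p = 0.000177). Of 10 antioxidant genes, Srxn1, which repairs peroxiredoxins, rose in both (0.24, adjusted p = 1.74e-05, and 0.27, adjusted p = 0.000882), and Slc7a11, the cystine importer, fell in controls (−0.35, adjusted p = 0.00871). Of 8 tested cytokine and acute-phase genes, 3 rose and 2 fell in controls, among them the transcription factor Cebpd (0.96, adjusted p = 0.000709) and the signalling inhibitor Socs3 (−0.49, adjusted p = 0.0228). In PER2-S662D mice 1 rose, Cebpd (1.75, adjusted p = 2.37e-05).

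In whole tissue, fewer cells of a type and less RNA per cell cannot be told apart. Astrocytes are the main source of Mt1 and Mt2 in brain, so their 9 markers are given beside the change. Their summed level was 3656 to 3835 CPM in fed and 3653 to 4017 CPM in fasted controls, ranges that overlap. Aldh1l1 (0.20, adjusted p = 0.000632) and Agt (0.25) rose and Aqp4 fell (−0.33, adjusted p = 5.90e-06). In PER2-S662D mice the sums were 3630 to 3874 CPM fed and 3777 to 4266 CPM fasted, with Aldh1l1 (0.19) and Aldoc (0.24) higher. Endothelial markers summed to 264 to 299 CPM in fed and 235 to 273 CPM in fasted controls, with 2 of 7 lower, and 2 of 6 microglial markers were lower. The part of these shifts in the metallothionein values was not tested.

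Genes next to the metallothioneins gave a check on the region. Among tested neighbours within 150000 bases, Nudt21, Ogfod1, Bbs2, Nup93 and Slc12a3 did not pass with fasting in controls. Bbs2, the nearest tested gene upstream of Mt3, differed by −0.06 (SE 0.05, adjusted p = 0.659), and Nup93, downstream of Mt1, by −0.06 (SE 0.06, adjusted p = 0.775). Slc12a3, with 494 counts in all, gave 0.78 (SE 0.29, adjusted p = 0.153).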

How the data were processed

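Each library came with a table of raw counts per gene that the authors deposited. The command lines in those tables, per the file headers, show that featureCounts 2.0.1 assigned fragments to GENCODE vM12 genes (mm10) by gene name, without strand, with multi-mapping reads counted and fragments that overlap more than 1 gene left out. The submitters' processing notes name STAR 2.7.10b. Groups came from the labels. Genes were kept with edgeR's filterByExpr (minimum count 10), which left 18063. All 35 libraries entered 1 quasi-likelihood fit with TMM scaling (edgeR 4.0.16, R 4.3.3), tested first on simulated data. Standard errors were derived from the F statistic. CPM values are counts per 1000000 of the scaled library size. No library repeated another: a chi-square comparison within groups gave at least 2.53 per degree of freedom. The labels do not say whether libraries come from separate mice, so p-values measure the spread between these libraries. Alternatives used DESeq2 1.42.0, limma 3.58.1, other scalings and filters, subsets of libraries and a replicate block. Named genes were the 8 members, called zinc transporters, Fkbp5, Tsc22d3 and Sgk1, the 2 largest called genes of each further list, and the 5 genes most correlated with Mt1 and with Mt2 (mean of at least 1 CPM). The genes most like Mt3, the third astrocyte gene and the neighbours were chosen after their values were seen. Correlations with set means removed and the alternatives for Slc39a10 were added after seeing the data. Members and lists were chosen with earlier results of these data known. Promoter windows are from RefSeq (GRCm38.p6), which matched 7 of 8 members, all but Slc39a14.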

Additional observations from a re-analysis of the deposited data

Results flagged for a closer look

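The fasting response of Mt3 differed between the control sets, by 1.08 on the log2 scale (replicates 6 to 10 minus 1 to 5, SE 0.24, adjusted p = 0.00653, edgeR). Fasted libraries were lower in all 5 of the first set than any fed library of that set. Slc39a10, an importer outside the 8 genes, also differed, by −0.31 (SE 0.07, adjusted p = 0.00884), falling in replicates 6 to 10. The comparison of the sets was added after seeing the data, and 10.6% of all genes passed it.

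Among 40 groups of member values, 3 held a library far from the others by Dixon's criterion, which chance alone gives in about 1 of 20 groups. Slc30a1 was lowest in labelled Per2 ko replicate 5, at 28.6 CPM against 29.9 in the nearest library, a small gap in a tight group. Slc30a1 was also lowest in fed PER2-S662D replicate 1, at 24.5 CPM against 29.6. The same library had the highest Slc30a3, at 15.2 CPM against 10.7. It carries no additional digit.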

How the results depend on the processing

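The rise of Mt1 and Mt2 with fasting kept its call in all 31 alternatives in controls (Mt1 0.63 to 0.78; largest adjusted p for Mt2 0.0180) and in 21 of 22 in PER2-S662D mice (0.72 to 1.06 and 1.36 to 1.75), the exception being the libraries without the additional digit. All 8 genes were scored with fasting in each genotype, but only some in other comparisons. Of their 846 recomputed fold changes, 781 kept direction and side of the threshold, 27 lost a call, 14 gained one and 24 changed sign. Values below from fewer libraries have tests with fewer samples. For the others the cause was not tested.

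Counts of members called moved as follows. With the replicate block, fed PER2-S662D against control gave 3 (where 2284 of all genes passed) and labelled Per2 ko against PER2-S662D gave 1 (217 of all genes). Same-numbered libraries share only a number: in controls the correlation of their deviations ran from −0.191 to 0.059, and 0 of 10 correlated best with their own number. In PER2-S662D mice it ran from −0.109 to 0.160 and 1 of 5 did, and for fed PER2-S662D against control it ran from −0.052 to 0.236, with 3 of 5 pairs over 0.1 and 3 of 5 best with their own number. The block kept the fasting calls of Mt1 and Mt2 (0.70 and 1.36 in controls) and lost that of Slc30a10 in PER2-S662D mice (−0.33, adjusted p = 0.0691). In fed PER2-S662D against control it added Mt1 (−0.41, adjusted p = 0.00213), Mt3 (−0.34, adjusted p = 0.000865) and Slc39a14 (0.19, adjusted p = 0.0336), with control replicates 6 to 10 sharing no number with a PER2-S662D library. It lost Mt2 (−0.77, adjusted p = 0.0660) in labelled Per2 ko against PER2-S662D. With control replicates 1 to 5 only, fasting in controls gave 3, adding Mt3 (1303 of all genes passed). With the same controls the interaction gave 1 (482 of all genes), fed PER2-S662D against control 2 (1711) and fasted 1 (1679). With PER2-S662D libraries that carry the digit, these fed and fasted counts were 2 (3128 of all genes) and 2 (3147). Labelled Per2 ko against PER2-S662D then gave 1 (2998 of all genes). Without the digit, fasting in PER2-S662D gave 0 (5 of all genes) and labelled Per2 ko against PER2-S662D 0 (28), as did the digit as a term in the latter (42). DESeq2 gave 1 in fed PER2-S662D against control (1426 of all genes). It gave 1 in labelled Per2 ko against PER2-S662D (1739), with no adjusted p for Mt2. The latter comparison gave 1 with no low-count filter (907). Leaving out 1 library gave 0 to 2 for fed PER2-S662D against control. There were 1 without control replicate 9 (1105 of all genes) and 2 without PER2-S662D replicate 5 (1611). The fasted comparison gave 0 to 1, with 1 without PER2-S662D replicate 1 (1799). Fasting in PER2-S662D gave 2 to 3 (308 to 586 of all genes), and labelled Per2 ko against PER2-S662D 0 to 2 (529 to 1856).

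Scored values that changed sign, none passing in the main fit, were these. Mt3 with fasting in controls gave −0.0001 with no scaling beyond library size, −0.0002 with no low-count filter and −0.0687 to 0.0636 with 1 library left out. It gave −0.54 in replicates 1 to 5, where it passed (adjusted p = 0.039, edgeR). In replicates 1 to 5, Mtf1 gave 0.0022 and Slc30a3 −0.14, and in replicates 6 to 10 Slc39a14 gave −0.0037. In PER2-S662D libraries without the digit, Mtf1 gave 0.0244, Slc30a3 −0.22, Slc39a14 −0.0078 and the interaction of Mt2 −0.0204. With control replicates 6 to 10, the interaction of Mt3 was −0.23, Mt3 in fed PER2-S662D against control 0.22 (0.067 with the digit as a term) and Mt1 in fasted PER2-S662D against control 0.0199, the latter 0.0008 with the digit as a term. The number of all genes called with fasting ran from 298 to 1303 in controls and from 5 to 688 in PER2-S662D mice. It ran from 0 to 482 for the interaction. For PER2-S662D against control it was 16 to 3128 fed and 20 to 3147 fasted. For labelled Per2 ko it was 2 to 104 against control and 28 to 2998 against PER2-S662D. Depth limits Mt2 most, with 8 counts in its lowest library.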
